A study of Mus musculus with 10 samples.

Results

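The granzymes, perforin and cathepsin W are the proteins that cytotoxic T cells and natural killer (NK) cells load into their lytic granules. They are represented by 6 of the 770 gene probes of the panel, *Gzma*, *Gzmb*, *Gzmk*, *Gzmm*, *Prf1* and *Ctsw*. The probes were taken by symbol, and the set was chosen with earlier results of these data known. RNA (100 ng per tumor) from YUMMER1.7 tumors, grown from a mouse melanoma line, was counted on the NanoString PanCancer Immune panel, which counts single RNA molecules through fluorescent barcodes on the probes. The line was injected into Siah2 WT or Siah2-/- mice of C57BL/6 background (Siah2 KO in the labels), with 5 tumors in each group, named WT2 to WT6 and KO1, KO2, KO3, KO5 and KO6. Siah2 encodes a RING finger ubiquitin ligase and was missing from all cells of the KO host and not from the injected melanoma cells. Both groups received the same cells and no drug. The tumor growth experiment used male mice of 5 to 7 weeks, while the labels of the 10 tumors give neither sex nor age. The sample labels give day 11 after injection and the series text day 10. The series text also names another cell line and another knockout, Yumm1.5 cells and Rnf5-/- mice, whereas all sample labels and the study's methods name YUMMER1.7 and Siah2, which were used here. The genotypes rest on these labels, since no probe of the panel carries the symbol Siah2.

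The 770 probes together gave 382860 to 581635 counts per tumor before the authors' scaling factor (median 558818 in Siah2 KO and 559073 in WT tumors). The factor, which brings the reference genes of each tumor to one geometric mean, was 0.918 to 1.60. It was higher in KO tumors (1.03 to 1.60, median 1.26) than in WT tumors (0.918 to 1.32, median 0.964), with overlap. Over all 770 probes the median log2 fold change between Siah2 KO and WT tumors was 0.24, and it became −0.0074 with the tumors scaled to a common median of the endogenous genes, −0.040 with quantile normalization and 0.082 with scaling to the positive control probes. At an adjusted p under 0.05 in limma, 241 probes were higher and 75 lower, and the split was 163 and 152 with median scaling, 153 and 181 with quantile normalization and 60 and 35 with positive control scaling. *S100b*, a marker of melanocytes and glia used here to check for melanoma cells, was low in all tumors, with 1.03 to 2.51 normalized counts in Siah2 KO and 6.29 to 26.7 in WT tumors.

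A killer cell that recognizes a target releases its granules into the contact between the cells. Perforin (*Prf1*) forms pores in the membrane of the target, and the granzymes, serine proteases kept in the same granules, enter the cytosol. Granzyme B (*Gzmb*) cleaves after aspartate and activates the caspases and Bid, granzymes A (*Gzma*) and K (*Gzmk*) cleave after basic residues, granzyme M (*Gzmm*) prefers methionine or leucine, and cathepsin W (*Ctsw*) is a papain-family protease of cytotoxic lymphocytes.

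The genes lie apart in the genome except for *Gzma* and *Gzmk*, which are neighbours on chromosome 13 with 0 protein-coding genes between them in the RefSeq table. Genes of other types were not considered for the neighbours. *Gzmb* lies on chromosome 14 beside *Gzmc*, *Prf1* and *Gzmm* on chromosome 10, and *Ctsw* on chromosome 19. The 250 bases before the transcription start are shown for the 4 genes that were higher in Siah2 KO tumors. They come from RefSeq on GRCm38.p6, which held such windows for 5 of the 6 genes, at chr13:113100982-113101231 on the minus strand for *Gzma*, chr14:56262335-56262584 on the minus strand for *Gzmb*, chr13:113180966-113181215 on the minus strand for *Gzmk* and chr10:61297586-61297835 on the plus strand for *Prf1*. Each is written 5′ to 3′ on the strand of its gene, and capitals mark matches on either strand to the Runx core TGTGGT, the AP-1 site TGANTCA, the CRE core TGACGT and the T-box core TCACAC.
Gzma: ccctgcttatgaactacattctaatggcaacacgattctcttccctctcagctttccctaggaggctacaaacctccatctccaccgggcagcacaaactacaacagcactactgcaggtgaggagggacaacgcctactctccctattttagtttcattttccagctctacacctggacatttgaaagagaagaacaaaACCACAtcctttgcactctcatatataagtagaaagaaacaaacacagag
Gzmb: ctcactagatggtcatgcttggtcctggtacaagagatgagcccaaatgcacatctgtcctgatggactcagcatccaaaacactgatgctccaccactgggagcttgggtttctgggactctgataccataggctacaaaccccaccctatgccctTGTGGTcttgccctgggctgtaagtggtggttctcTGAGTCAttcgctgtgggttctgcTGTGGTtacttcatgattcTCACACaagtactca
Gzmk: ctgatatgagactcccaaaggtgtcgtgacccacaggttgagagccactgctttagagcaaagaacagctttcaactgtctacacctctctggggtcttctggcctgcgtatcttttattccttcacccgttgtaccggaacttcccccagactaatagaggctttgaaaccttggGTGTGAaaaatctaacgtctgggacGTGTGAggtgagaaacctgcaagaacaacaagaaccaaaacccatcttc
Prf1: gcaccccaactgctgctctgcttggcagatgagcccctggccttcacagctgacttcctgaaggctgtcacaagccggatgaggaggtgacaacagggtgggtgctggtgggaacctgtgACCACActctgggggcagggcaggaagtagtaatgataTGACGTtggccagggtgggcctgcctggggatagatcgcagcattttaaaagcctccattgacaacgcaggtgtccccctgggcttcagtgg
The *Gzmb* window held the Runx core at 93 and 34 bases before the start, with an AP-1 site at 58 and a T-box core at 15. The Runx core lay at 50 bases in *Gzma* and at 130 in *Prf1*, which also had a CRE core at 92. The *Gzmk* window held 2 T-box cores, at 74 and 49 bases, and no Runx core. Among all 32851 windows of this length, 14.0% held the Runx core, 12.3% the T-box core, 6.75% the AP-1 site and 6.47% the CRE core. The exact letters TATAAA of the TATA box, present in 12.4% of all windows, matched in 0 of the 6 windows of these genes, *Gzmm* having 2 annotated starts. Other forms of the TATA box were not searched, and the *Gzma* window holds the similar letters tatataag near the transcription start. The STAT palindrome TTCNNNGAA, present in 7.02%, matched in 1 window of *Gzmm*. The windows of *Gzmm*, which did not pass the test, also held a Runx core at 247 bases before the first start and a T-box core at 188 bases before the other.

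Of the 6 genes, 4 were higher in Siah2 KO tumors at an adjusted p under 0.05 (limma on log2(normalized count + 1), two-sided, adjusted over the 770 probes), where 31.3% of all probes were higher, 9.74% lower and 41.0% either. The median log2 fold change over the 6 was 1.40 (1.14 with median scaling, 1.07 with quantile normalization), against 0.24 over all probes, and a log2 fold change above 1 was found for 10.8% of all probes. *Gzmb*, *Gzma* and *Prf1* had every Siah2 KO tumor above every WT tumor, as did 24.5% of all probes, while 7.01% of all probes and 0 of the 6 had every KO tumor below every WT tumor. By size of the log2 fold change among the 770 probes, *Gzmb* ranked 19, *Gzmk* 28, *Gzma* 39 and *Prf1* 49. *Ctsw* and *Gzmm* did not pass the test. In bulk tumor RNA, more killer cells and more of a transcript per killer cell cannot be told apart.

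*Gzmb* was at 254, 353, 369, 566 and 507 normalized counts in WT2 to WT6 and at 1541, 1393, 1644, 1551 and 1062 in KO1, KO2, KO3, KO5 and KO6. The lowest Siah2 KO tumor, KO6, lay well above the highest WT tumor, WT5, and the other four KO tumors were close to each other. The log2 fold change was 1.85 (95% interval 1.36 to 2.33, adjusted p = 0.00024 from limma), and the exact permutation test gave p = 0.0079, the smallest that the 252 divisions of the tumors allow. The signal of *Gzmb* lay far above the negative control probes in all tumors, and its SD was 15.9% of the mean in KO and 30.6% in WT tumors.

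*Gzma* was at 375, 409, 398, 955 and 812 normalized counts in WT2 to WT6. In KO1, KO2, KO3, KO5 and KO6 it was at 1706, 1837, 1361, 1223 and 1460. WT5 and WT6 stood well above the other WT tumors and came near to the lowest KO tumor, KO5, without overlap. The log2 fold change of *Gzma* was 1.46 (95% interval 0.84 to 2.09, adjusted p = 0.0025 from limma; exact permutation p = 0.0079). The highest WT tumor was 2.55 times the lowest, and the highest KO tumor 1.50 times the lowest.

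*Gzmk*, the neighbour of *Gzma* on the chromosome, was a weak signal, at 13.8, 7.18, 10.4, 12.9 and 10.5 normalized counts in WT2 to WT6. In the KO tumors it was at 65.2, 36.1, 36.6, 60.2 and 9.83, so that 4 of 5 lay above all WT tumors and KO6 lay among them. The value of KO6 equalled its brightest negative control probe (9.83 on the same scale), while the other 9 tumors were above theirs. The log2 fold change of *Gzmk* was 1.62 (95% interval 0.64 to 2.61, adjusted p = 0.015 from limma; exact permutation p = 0.040), and 2.06 without KO6 (adjusted p = 0.00031). With only the 8 tumors whose numbers are shared by the groups the value was 1.40 and no longer passed (adjusted p = 0.067). With values under 20 raised to 20 it was 0.97 (adjusted p = 0.026).

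*Gzmm* was near background, at 5.14, 8.15, 11.4, 3.65 and 15.3 normalized counts in WT2 to WT6. In the KO tumors it was at 4.22, 10.5, 1.26, 1.48 and 14.0, of which KO3 and KO5 were at the lowest value that their scaling allows. The brightest negative control was exceeded in 5 of 10 tumors and the groups overlapped. Its log2 fold change was −0.68 with a 95% interval of −1.97 to 0.62 (adjusted p = 0.38 from limma), so a change of *Gzmm* in either direction was not detectable at this signal.

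*Prf1*, the pore former, was at 108, 141, 115, 224 and 227 normalized counts in WT2 to WT6 and at 396, 414, 398, 338 and 429 in the KO tumors. The KO tumors were tightly grouped, with an SD of 8.8% of their mean, against 36.0% in WT tumors, where WT5 and WT6 were again the highest. The log2 fold change of *Prf1* was 1.34 (95% interval 0.85 to 1.83, adjusted p = 0.0012 from limma; exact permutation p = 0.0079).

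*Ctsw* was at 145, 164, 110, 200 and 140 normalized counts in WT2 to WT6 and at 177, 140, 182, 297 and 172 in the KO tumors. Only KO5 exceeded the highest WT tumor, and the other four KO tumors lay within the WT range. For *Ctsw* the log2 fold change was 0.33 (95% interval −0.15 to 0.80, adjusted p = 0.24 from limma; exact permutation p = 0.20), an interval that ends below the lower limit of *Gzmb*, *Gzma* and *Prf1*. With median scaling it was 0.065.

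**Figure D1:**
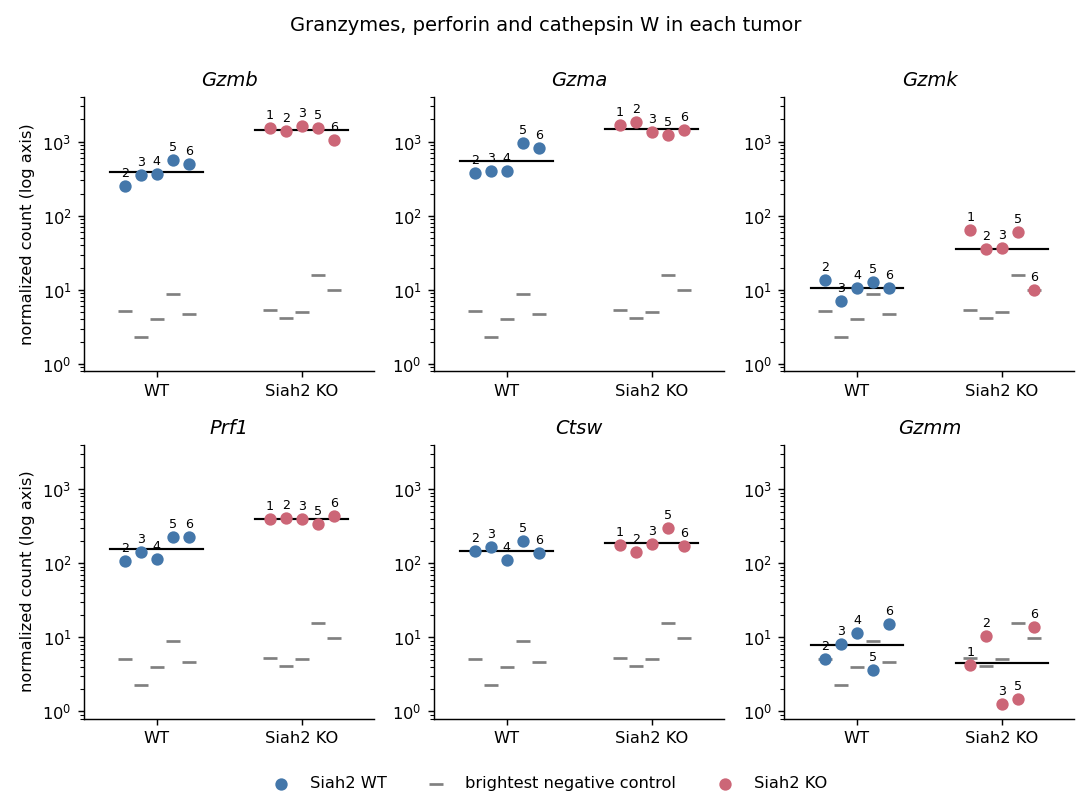
Normalized counts (log axis) of the 6 genes in each tumor, WT in blue and Siah2 KO in red, with the replicate number over each point, a line at the mean of the log2 values of the group and a grey bar at the brightest negative control probe of the tumor times its factor. *Gzmb*, *Gzma* and *Prf1* had no overlap between the groups, KO6 had 9.83 counts of *Gzmk*, and *Gzmm* lay at the level of the negative controls.

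The same 2 WT tumors, WT5 and WT6, were highest for *Gzmb*, *Gzma* and *Prf1*, and of these WT5 was also highest for *Ctsw*. Among the KO tumors the order differed between the genes. KO6 was lowest for *Gzmb* and *Gzmk* and highest for *Prf1*, and KO5 was lowest for *Gzma* and *Prf1* and highest for *Ctsw*.

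Differences between the changes of the genes were tested for the 15 pairs, as the per-tumor difference of log2 values in Siah2 KO against WT tumors (two-sided exact permutation test). Of these, 8 had a p under 0.05 and 0 passed after adjustment over the 15 pairs, the smallest adjusted p being 0.060. The exact p cannot fall below 0.0079 with these tumors, so 1 fully separated pair could not pass the adjustment by itself. The largest difference outside the pairs with *Gzmm* was between *Gzmb* and *Ctsw*, by 1.52 on the log2 scale (exact permutation p = 0.0079), the only pair without overlap of the groups. *Prf1* exceeded *Ctsw* in its change by 1.01 (exact permutation p = 0.016), *Gzma* exceeded it by 1.14 (p = 0.024 in the same exact permutation test), and *Gzmb* exceeded *Prf1* by 0.51 (exact permutation p = 0.032). *Gzma* and *Prf1* kept nearly the same ratio in both groups, with a difference of 0.12 between the groups (exact permutation p = 0.33) and an SD over tumors of 0.18 in KO and 0.20 in WT. For *Gzma* less *Gzmk* the difference was −0.16 (exact permutation p = 0.84). Without KO6, 3 pairs passed after adjustment.

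The likeness of *Gzma* and *Prf1* was also the closest found for either gene. For each of the 6 genes, all 602 probes whose mean reached 20 normalized counts were compared with it by the root mean square difference of their log2 values over the 10 tumors, each probe less its own mean, as a description. For *Gzma* the nearest probe was *Prf1* at 0.18, followed by *Trem1* at 0.34 and *Gzmb* at 0.35, and the median over all probes was 0.78. For *Prf1* the nearest after *Gzma* were *Pvr*, a ligand of receptors on T and NK cells, at 0.30 and *Cd244*, a receptor of killer cells, at 0.31. *Gzmb* was most like *Thbs1* at 0.26, *Klrc1*, which encodes the NKG2A receptor, at 0.30 and *Cd274*, which encodes PD-L1, at 0.30. The probes nearest to *Gzmk* were *Hsd11b1* at 0.49, *Havcr2*, which encodes the receptor TIM-3, at 0.53 and *Ccl11* at 0.54. *Ctsw* was nearest to *H2-Eb1*, an MHC class II gene, at 0.13, and to the complement genes *C1qa* at 0.15 and *C1qb* at 0.15, with a median of 0.40 over all probes. For *Gzmm* the nearest, *Msln*, was at 0.63.

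Over all 770 probes 241 (31.3%) were higher in Siah2 KO tumors, 163 with median scaling, 153 with quantile normalization and 60 with positive control scaling. Of 10 T cell markers 6 were higher (4 with median scaling, 3 with quantile normalization, 0 with positive control scaling). Their summed level was 833 to 1580 normalized counts in KO and 651 to 836 in WT tumors. Both CD8 markers were higher, *Cd8a* with a log2 fold change of 1.13 and *Cd8b1* with 1.76 (with positive control scaling *Cd8a* did not pass, adjusted p = 0.064), and their summed level was 119 to 200 in KO and 42.0 to 87.8 in WT tumors. Of 8 NK cell markers 4 were higher (2 with median scaling, 1 with quantile normalization, 1 with positive control scaling), with a summed level of 526 to 611 against 341 to 442, while *Klra1* and *Klra3* were at or near the lowest value in all tumors. None of these lists had a called lower gene as deposited, but 1 of the T cell markers, *Cd6*, was lower with median scaling and quantile normalization.

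The 6 genes were therefore also expressed relative to the median log2 value of the T cell, the NK cell and the leukocyte markers of the same tumor, lists whose own difference between the groups was 0.69, 0.48 and 0.42. The NK cell scale rests on weak probes, of which 3 of 8 stayed under 20 counts in all tumors. Converted back to counts, its median was 19.1 to 39.8 in KO and 16.5 to 31.5 in WT tumors. Relative to T cell markers, *Gzmb* was at 2.12, 2.43, 2.72, 3.15 and 3.25 on the log2 scale in WT2 to WT6 and at 3.64, 3.93, 4.39, 3.46 and 4.04 in the KO tumors. The groups still did not overlap, although KO5, the tumor with most T cell signal, came near to WT6. The log2 fold change of *Gzmb* on this scale was 1.16 (95% interval 0.59 to 1.72, adjusted p = 0.0051 from limma). It was 1.37 relative to NK cell markers (adjusted p = 0.00065 from limma) and 1.43 relative to leukocyte markers (adjusted p = 0.00058), and it passed under every alternative and without any single tumor on the 3 scales.

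The other genes depended on the scale. Relative to T cell markers 5.06% of all probes were higher and 27.9% lower, and besides *Gzmb* only *Gzmk* passed, with a log2 fold change of 0.93 (adjusted p = 0.032 from limma). Leaving out any one of WT3, WT4, WT6, KO1, KO2, KO3 or KO5 ended that call, with adjusted p of 0.051 to 0.085 in limma. *Gzma* had 0.78 (95% interval 0.070 to 1.48, adjusted p = 0.083 from limma) and passed without WT6 (adjusted p = 0.0496), without KO5 (adjusted p = 0.039), with a pseudocount of 10 (adjusted p = 0.010) and with values under 20 raised to 20 (adjusted p = 0.0079). *Prf1* had 0.65 (95% interval −0.012 to 1.32, adjusted p = 0.11 from limma), and KO and WT tumors overlapped. *Prf1* passed with a pseudocount of 10 (adjusted p = 0.029 from limma) and with values under 20 raised to 20 (adjusted p = 0.018). It did not pass with the methods' t-test, the list mean, the replicate block or its 8 tumors without the block. *Ctsw* had −0.36 (95% interval −0.86 to 0.14, adjusted p = 0.24 from limma). *Gzmm* had −1.37 (95% interval −2.63 to −0.11, adjusted p = 0.086 from limma) and passed as lower without KO2 (adjusted p = 0.049) or without KO6 (adjusted p = 0.013), at values near background.

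Relative to NK cell markers, where 6.62% of all probes were higher and 11.7% lower, *Gzma* passed with 0.98 (adjusted p = 0.031 from limma) and *Gzmk* with 1.14 (adjusted p = 0.013). Leaving out WT2, WT3, WT4, KO1, KO2 or KO6 ended the call of *Gzma*, with adjusted p of 0.058 to 0.087 in limma. *Prf1* had 0.86 (adjusted p = 0.052 from limma) and passed without WT6 (adjusted p = 0.016) or without KO5 (adjusted p = 0.029). *Prf1* also passed with a pseudocount of 10 (adjusted p = 0.00065 from limma), with values under 20 raised to 20 (adjusted p = 7.6e-05) and with the list mean (adjusted p = 0.010). It did not pass with the methods' t-test, the replicate block or its 8 tumors without the block. *Gzmm* had −1.16 (adjusted p = 0.17 from limma) and passed as lower only without KO6 (adjusted p = 0.023). Relative to leukocyte markers, where 13.4% of all probes were higher and 23.6% lower, *Gzmb*, *Gzma*, *Gzmk* and *Prf1* passed, *Gzma* with 1.05, *Gzmk* with 1.21 and *Prf1* with 0.93. There *Gzma* did not pass without WT2 (adjusted p = 0.051 from limma), and among the fits that leave out one tumor *Gzmk* passed only without WT2 and without KO6, with an adjusted p of 0.052 to 0.077 in the others. *Ctsw* was at −0.086 (95% interval −0.42 to 0.25), close to the change of the leukocyte markers themselves.

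**Figure D2:**
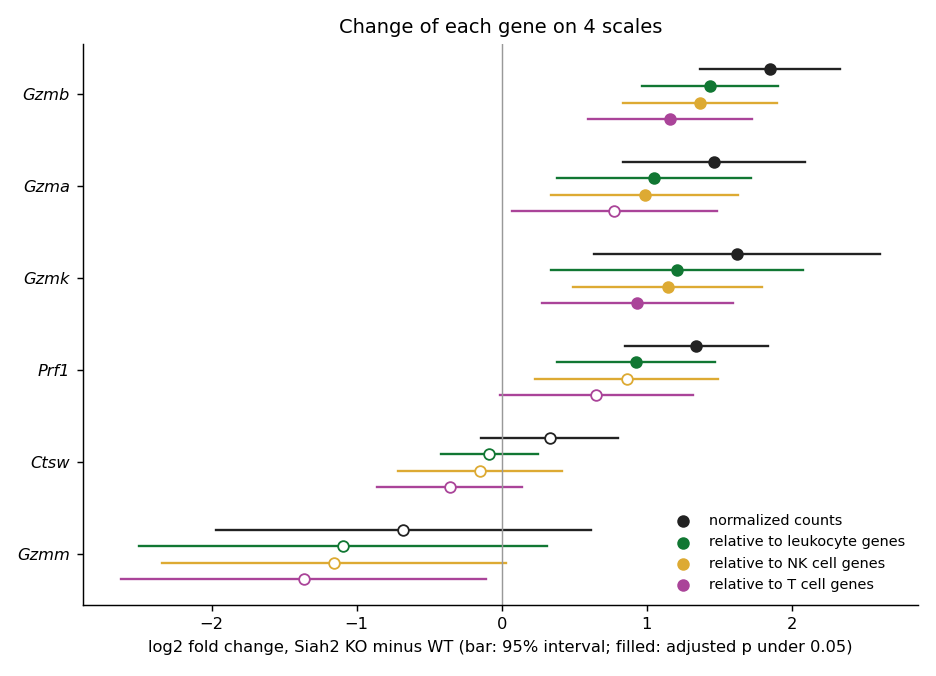
Log2 fold change (Siah2 KO minus WT, 5 tumors each) of the 6 genes on 4 scales, with 95% intervals from limma, filled where the adjusted p was under 0.05. *Gzmb* was filled on all scales (1.85 on normalized counts, 1.16 relative to T cell genes), *Prf1* on 2 of them, and *Ctsw* and *Gzmm* on none.

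The values of these genes are set beside the T cell markers of the same tumors as a description. The level of the T cell markers (their median log2 value, converted back to counts) was 63.5 to 140 in KO and 52.4 to 64.9 in WT tumors, and KO6 alone lay within the WT range. KO6, at the T cell level of a WT tumor, had 1062 counts of *Gzmb* and 429 of *Prf1*, both above all WT tumors, and 9.83 of *Gzmk*, within the WT range. KO5, with the highest T cell level, had the lowest *Prf1* of the KO tumors at 338. KO1 and KO5 had the 2 highest levels of T cell markers and the 2 highest values of *Gzmk*. These are values of 5 tumors and no relation was tested.

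**Figure D3:**
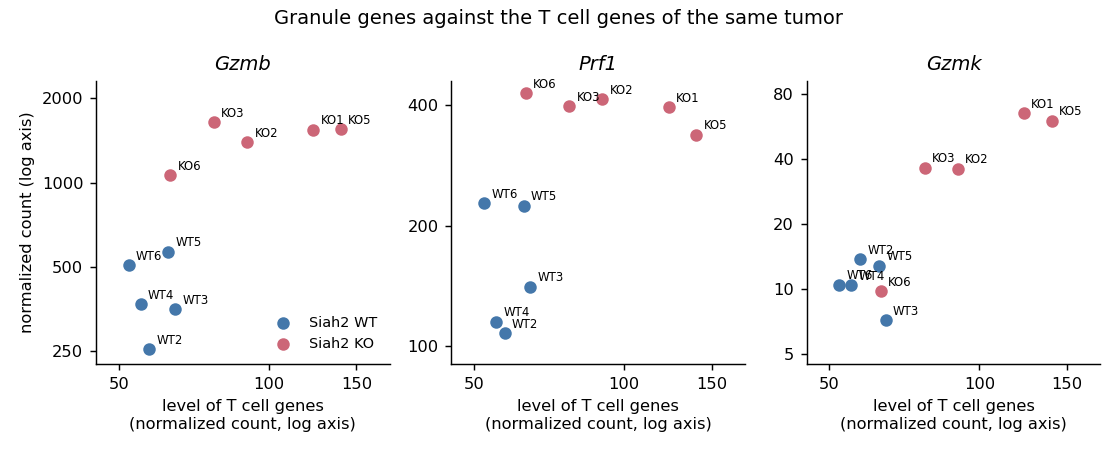
Normalized counts of *Gzmb*, *Prf1* and *Gzmk* against the level of the T cell marker genes in the same tumor (both axes logarithmic), each point a tumor named by group and replicate. KO6 lay beside the WT tumors on the T cell axis at 63.5 and on the *Gzmk* axis at 9.83, but above them for *Gzmb* (1062) and *Prf1* (429).

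Of 9 genes of the death ligands, their receptors and the caspase steps, 3 were higher in Siah2 KO tumors and 0 lower. Over all probes 31.3% were higher and 9.74% lower. The median log2 fold change of the list was 0.24, the same as over all probes. *Fasl*, the ligand with which killer cells trigger death without granules, was at 20.1 to 39.7 normalized counts in KO and 8.93 to 16.3 in WT tumors, with a log2 fold change of 1.33 (adjusted p = 0.00079 from limma). *Bid*, a substrate of granzyme B that acts on mitochondria, rose by 0.64 (adjusted p = 0.0016). *Casp8*, the initiator caspase below Fas, rose by 0.43 (adjusted p = 0.0035), a call that did not hold with median scaling (0.17) or quantile normalization (0.010). With positive control scaling neither *Bid* (0.48, adjusted p = 0.40 from limma) nor *Casp8* (0.27, adjusted p = 0.68) passed, and *Fasl* was the 1 gene of the list that did. The receptor *Fas* was at 0.13 (adjusted p = 0.59).

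Among 3 granule membrane genes *Lamp2* was higher by 0.31 (adjusted p = 0.049), which with median scaling was 0.040 and with quantile normalization −0.091. *Lamp1*, the marker of granule release on the cell surface, was at −0.058 and *Cd63* at 0.061, and neither passed as deposited, but *Lamp1* passed as lower with median scaling (−0.32, adjusted p = 0.0045) and quantile normalization (−0.27, adjusted p = 0.0065).

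Of 6 transcription factors of the cytotoxic program 2 were higher, a share near the 31.3% of all probes. *Tbx21*, which encodes T-bet, was at 29.0 to 57.2 counts in KO and 18.2 to 27.4 in WT tumors, with a log2 fold change of 0.93 (adjusted p = 0.0033 from limma). *Runx3*, which encodes a factor that binds the Runx core shown above, was at 45.9 to 69.7 counts in KO and 26.9 to 35.8 in WT tumors, with a log2 fold change of 0.80 (adjusted p = 0.0023 from limma). Both passed also with median scaling and quantile normalization and not with positive control scaling. *Eomes* was at 0.42 (adjusted p = 0.058), *Prdm1* at 0.44 (adjusted p = 0.075) and *Stat4* at 0.33 (adjusted p = 0.16). *Tcf7*, a factor of naive and stem-like T cells, was at −0.16 (adjusted p = 0.37), and at −0.43 with median scaling (adjusted p = 0.012).

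Of 15 cytokines and receptors that raise granule genes 6 were higher and 1 lower, where 31.3% of all probes were higher and 9.74% lower. The median log2 fold change of the list was 0.31, against 0.24 over all probes. All 6 that were higher encode receptor chains, and with positive control scaling only *Il12rb1* and *Il12rb2* passed. *Il12rb2*, the signalling chain of the IL-12 receptor, was at 46.9 to 101 counts in KO and 5.14 to 20.5 in WT tumors, with a log2 fold change of 2.44 (adjusted p = 0.0012 from limma). *Il12rb1*, its partner, was higher by 1.54, *Il18r1* by 0.99, *Il15ra* by 0.86, *Il2rg* by 0.73 and *Il2rb* by 0.66, the last not passing with quantile normalization (adjusted p = 0.11). *Il12b*, the ligand subunit p40, fell by 0.86 (adjusted p = 0.017), with 4 of 5 KO tumors below all WT tumors. *Il2*, *Il12a* and *Il21* stayed under a count of 20 in all tumors.

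Of 10 activating receptors and adaptors of killer cells 6 were higher and 0 lower, where 31.3% of all probes were higher and 9.74% lower. The median log2 fold change of the list was 0.59, against 0.24 over all probes. *Slamf7* was at 591 to 1265 counts in KO and 155 to 260 in WT tumors, with a log2 fold change of 2.17 (adjusted p = 0.00018 from limma), and was the only one of the list that passed with all 3 other scalings. *Cd244* was higher by 1.04, *Klrk1*, which encodes NKG2D, by 0.87, *Fcer1g*, an adaptor also of macrophages, by 0.84 and *Ncr1*, which encodes NKp46 of NK cells, by 0.53. *Fcgr3* was higher by 0.43 (adjusted p = 0.047) and did not pass with median scaling (0.16).

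Granule proteins of other cells and other cathepsins gave a comparison. Of 8 granule proteins of neutrophils, mast cells and eosinophils, 0 passed in limma, where 41.0% of all probes passed in either direction. The list had 2 genes at an unadjusted p under 0.05 in limma, and 5 of the 8 were never above a count of 20. *Ctsg* of neutrophils was at 0.96 (adjusted p = 0.070) and *Cma1* of mast cells at −0.43 (adjusted p = 0.066). *Cma1* passed as lower with median scaling (−0.70, adjusted p = 0.019) and quantile normalization (−0.77, adjusted p = 0.015). All 3 other papain-family cathepsins were higher, as were 31.3% of all probes, *Ctss* by 0.89, *Ctsh* by 0.38 and *Ctsl* by 0.35. However, *Ctsh* and *Ctsl* did not pass with median scaling, and 0 of the 3 passed with positive control scaling. Their summed level was 11222 to 16328 normalized counts in KO and 7243 to 9260 in WT tumors, without overlap, whereas *Ctsw* overlapped.

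**Figure D4:**
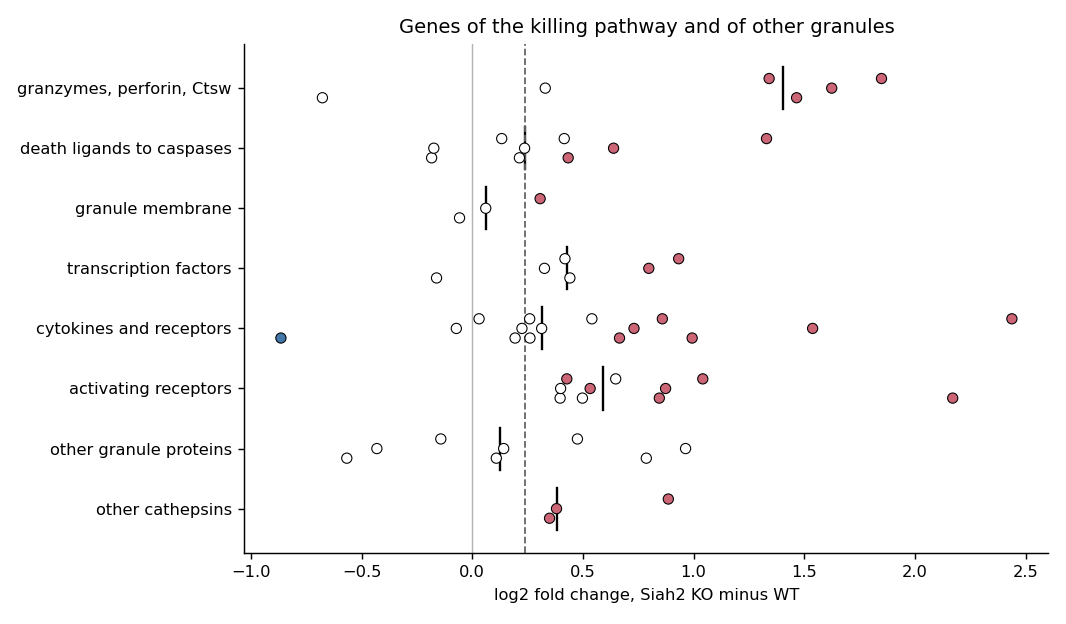
Log2 fold change (Siah2 KO minus WT) of each gene of 8 lists, red where higher and blue where lower at an adjusted p under 0.05, white otherwise, with a black line at the median of the list and a dashed line at the median of all 770 probes (0.24). The granule genes of killer cells had a median of 1.40, and *Il12rb2* (2.44) and *Slamf7* (2.17) were the 2 genes farthest to the right.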

How the data were processed

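The authors deposited one table of signal, the normalized counts of 770 gene probes (750 endogenous genes and 20 reference genes), 6 positive and 8 negative controls in 10 tumors. Quality control and scaling to the reference genes (their geometric mean in each tumor) were done by the authors in nSolver. The low values rise in equal steps, so a constant background had been subtracted before scaling and anything below 1 raised to 1. In every tumor 100% of the values above that floor and under 150 lay within 0.1 of a whole step, and dividing by the step gave the counts before scaling. These are not raw counts, so no count model was used.

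From the deposited signal, log2(value + 1) was computed without a filter, and Siah2 KO and WT tumors were compared by the two-sided moderated test of limma 3.58.1 (lmFit, eBayes; R 4.3.3) with Benjamini-Hochberg adjustment over the 770 probes and a threshold of 0.05. Exact permutation tests ran over all 252 divisions into 5 and 5. The tumors are separate labelled samples, and p-values measure the spread between them. The labels give no cartridge or scan, so no batch was examined. Values relative to a marker list had the median log2 value of that list subtracted in each tumor, which then entered the same fit. The groups came from the labels. The members, marker lists and pathway lists were chosen with earlier results of these data known. All 6 members are named, the genes of a list at an adjusted p under 0.05 may be named, and the 3 probes most alike are given for each member. Some list genes that did not pass (*Fas*, *Eomes*, *Prdm1*, *Stat4*, *Tcf7*, *Ctsg*, *Cma1*, *Lamp1*, *Cd63*, *Il2*, *Il12a*, *Il21*, *Cd6*, *Klra1* and *Klra3*) were chosen after their values were seen. The alternatives were 3 other scalings, 2 other pseudocounts, a floor of 20, a filter at a mean of 20, endogenous probes only, an intensity trend, the methods' t-test, the mean in place of the median of a marker list, the replicate number as a block, the 8 tumors of that fit without the block, and each tumor left out in turn. On simulated data for the comparison of Siah2 KO and WT tumors where 200 of the 770 probes carried a log2 change of 1, 78.5% were recovered and 3.68% of 163 calls were false, and with 0 changed 0 were called. Plots were made with Python and matplotlib. Upstream sequences were taken from RefSeq windows on GRCm38.p6 by symbol.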

Additional observations from a re-analysis of the deposited data

Results flagged for a closer look

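Among 28 genes, the 6 members and the called genes of the pathway lists, each group of 5 tumors was searched for a single tumor far from the others. Of 56 checks 4 found one, and chance gives about 1 in 20. None was a member, and all 4 were in WT tumors. *Il2rg*, the shared receptor chain for IL-2 and IL-15, was at 243.87 normalized counts in WT replicate 5, where the next WT tumor was at 192.70. *Il12rb1* was at 58.82 in WT replicate 3, where the next was at 36.13. *Ctsh* was at 1109.66 in WT replicate 4, below the next at 1363.46, and *Ctss* was at 3776.95 in the same tumor, below the next at 4811.15.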

How the results depend on the processing

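*Gzmb*, *Gzma* and *Prf1* stayed higher at an adjusted p under 0.05 under all 12 alternatives to the comparison on normalized counts and without any single tumor. *Gzmb* ranged from 1.54 to 1.85 over the alternatives and from 1.69 to 1.98 with single tumors left out, *Gzma* from 1.10 to 1.47 and from 1.33 to 1.67, and *Prf1* from 1.05 to 1.35 and from 1.21 to 1.48. *Gzmk* kept its call in 10 of the 12 (0.97 to 1.70 over the alternatives, lowest with the floor of 20) and without any single tumor (1.40 to 2.06). The 10 include the filter at a mean of 20, which *Gzmk* met only through the KO tumors (mean 41.6, against 11.0 in WT tumors). *Ctsw* (0.065 to 0.33) and *Gzmm* (−0.91 to −0.23) passed in none. *Gzmm* has no value with the filter at a mean of 20, which drops it, or with the floor of 20, which it never exceeds. The number of probes called fell from 316 to 95 with scaling to the positive controls and was 268 to 334 with single tumors left out.

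The replicate number as a block used the 8 tumors that share a number with the other group and called 235 probes, against 232 in the same tumors without it. *Gzmk* was at 1.40 in both (adjusted p = 0.060 with the block and 0.067 without). Same-numbered tumors deviated together with correlations of 0.035 to 0.35, and only numbers 5 and 6 matched best with each other, so the numbers were not taken as pairs.

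Relative to T cell genes 2 members passed. With a pseudocount of 10 the number was 5, of which 4 were higher and *Gzmm* lower. With a floor of 20 it was 4, of which 3 were higher and *Gzmm* lower. *Gzmm* is constant at that floor, so its call there only mirrors the change of the T cell genes. The number was 1 with the methods' t-test, 1 in the 8 tumors without a block, and 1 to 3 with single tumors left out. Relative to NK cell genes 3 passed, 1 with the methods' t-test, 1 in the 8 tumors without a block, and 2 to 4 with single tumors left out. Relative to leukocyte genes 4 passed, 1 with the replicate block, 1 in the 8 tumors without it, and 3 to 4 with single tumors left out. *Ctsw* relative to leukocyte genes was −0.086 and ranged from −0.16 to 0.0065 with single tumors left out, reversing without WT replicate 5. The pairs of members with an adjusted p under 0.05 numbered 0, 5 with a pseudocount of 10, 5 with a floor of 20 and 0 to 3 with single tumors left out. With the floor of 20, the pairs of the constant *Gzmm* with *Gzma*, *Gzmb* and *Prf1* only restate the changes of those genes. The cause of these shifts was not tested. Signal over background limits *Gzmm* and, in 1 tumor, *Gzmk*.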
